A study of Mus musculus with 6 samples.

Results

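The 44 genes described here encode the machinery of the cell cycle and DNA replication. They were taken by gene symbol from a list of cyclins, kinases, replication factors and mitotic proteins, and all 44 were found among the 24411 genes of the deposited table. They fall into 8 drivers of the passage from G1 into S phase, 15 S phase genes and 21 genes of G2 and mitosis. All 44 had enough counts to be tested. RNA was sequenced from cultures of mouse cortical neurons prepared from embryos at day 18, whose strain the labels do not name. One group of 3 libraries received phosphate-buffered saline (PBS). The other 3 received preformed fibrils (PFF) of mouse α-synuclein, aggregates assembled outside the cell, at 3.45 µM on day 10 in vitro. RNA was taken on day 18 in vitro, 8 days later. No transgene or deletion is named for either group, and PBS is the only control treatment. Whether the 3 libraries of a group are separate cultures is not stated in the labels. The p-values therefore rest on a spread between libraries that could be purely technical.

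The cell cycle runs from G1, in which D-type cyclins with CDK4 and then E-type cyclins with CDK2 relieve the retinoblastoma proteins' block on E2F factors, into S phase, in which DNA is copied. G2 and mitosis follow, driven by cyclins A and B with CDK1. Transcripts of S phase are mostly induced by E2F factors at the end of G1, and those of G2 and mitosis later, through the MuvB complex with B-MYB and FOXM1. Neurons themselves have left the cycle. In a cortical culture the dividing cells are progenitors and glia, among them oligodendrocyte progenitors, astrocytes and microglia.

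Libraries held between 9224974 and 10742383 estimated counts. Replicate 3 of each group stood apart: the chi-square per degree of freedom between replicates 1 and 2 was 2.7 in PBS and 2.9 in PFF, and between 7.18 and 9.2 for pairs with replicate 3. Of all 13919 genes tested, 916 changed (6.58%) at an adjusted p under 0.05, with 412 without PFF 2 and 1858 without PFF 3. Markers of neurons, the labelled cell type, were well expressed, with 12 genes summing to 5844 to 6293 CPM (counts per 1000000) in PBS and 6251 to 7023 in PFF. Each member's level is given as CPM, scaled between libraries, and each difference as a log2 fold change of PFF against PBS from edgeR's quasi-likelihood test.

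Some genes of G2 and mitosis and 2 D-type cyclins were lower in the cultures given fibrils, while no S phase gene passed the test. Of the 44 members 6 fell (13.6%) and none rose at an adjusted p under 0.05. Of all genes tested 6.58% changed, 2.60% fell and 3.98% rose. Those that fell were Ccnd2, Ccnd1 and Cdk4 among the G1 drivers, and Cenpf, Prc1 and Top2a among the genes of G2 and mitosis. At an unadjusted p under 0.05, 19 members were lower and 1 was higher, against 10.5% and 10.6% of all genes, or 21.2% in either direction. In bulk RNA, fewer dividing cells and less of these transcripts per cell cannot be told apart. Without PFF 2 only Ccnd2 and Cenpf passed, and without PFF 3 the number was 10, as it was with replicates 1 and 2 only.

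**Figure D1:**
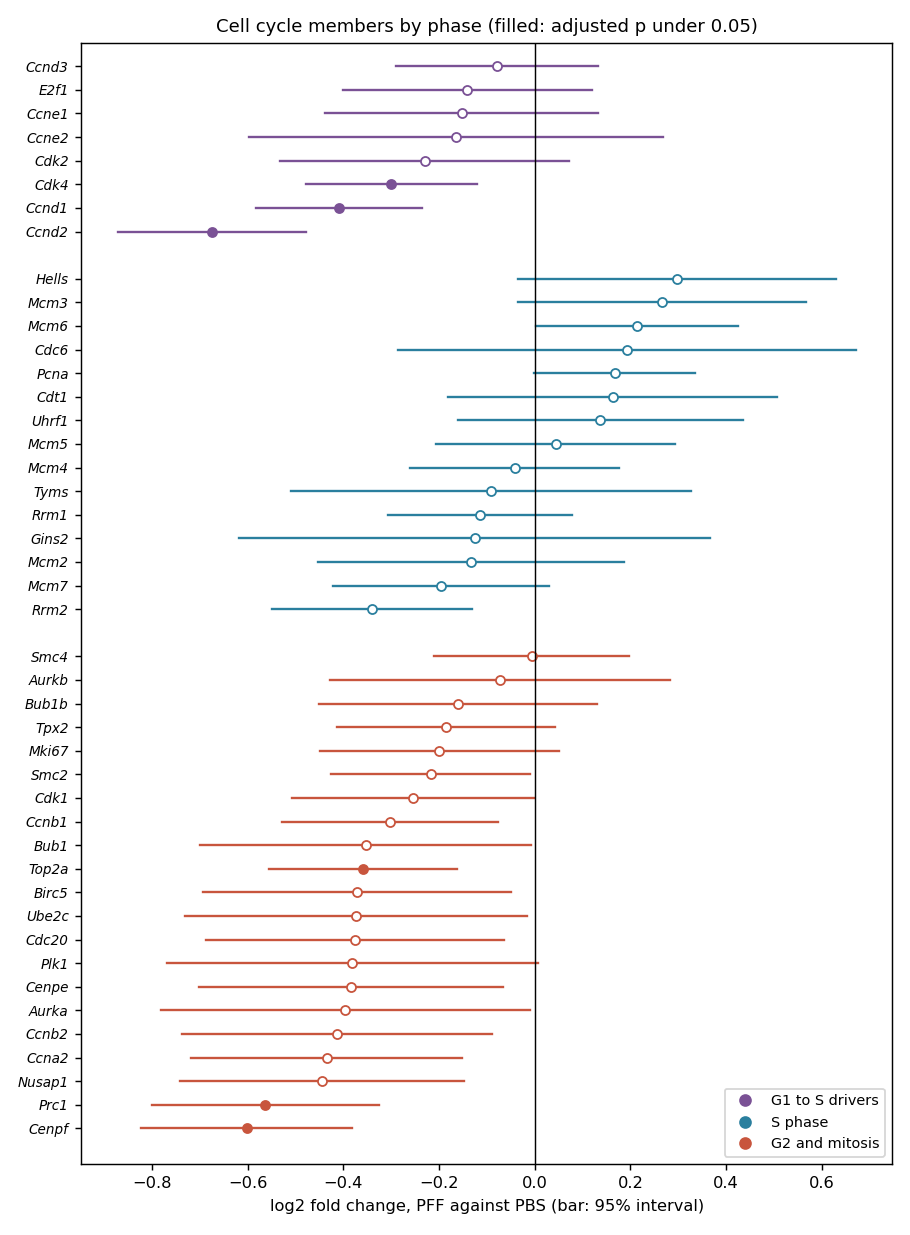
Log2 fold change of each of the 44 members, PFF against PBS, with its 95% interval (bar), by phase. Filled points passed an adjusted p under 0.05: 3 of 8 G1 to S drivers, 0 of 15 S phase genes and 3 of 21 genes of G2 and mitosis, where every point lies below 0.

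The D-type cyclins are the sensors of growth signals that open the cycle. Ccnd2, which encodes cyclin D2, stood at 257.8, 261.2 and 322.6 CPM in PBS and at 177.7, 168.3 and 181.5 CPM in PFF. The groups did not overlap, and PBS 3 was the highest library. Ccnd2 fell by 0.67 ± 0.09 on the log2 scale (SE, n = 3 per group here and below; adjusted p = 0.000438), a decrease of 37.3%, and it passed under all 18 alternative analyses. Ccnd1, which encodes cyclin D1, had 171, 154.9 and 175.2 CPM in PBS and 131.3, 114.9 and 131 CPM in PFF. Every PFF library again lay below every PBS library, and the log2 fold change was −0.41 ± 0.08 (adjusted p = 0.0073). Without PFF 2 it did not pass (adjusted p = 0.0616). The third D-type cyclin gene, Ccnd3, had 36.1, 30.7 and 30.4 CPM in PBS and 31.4, 28.5 and 31.9 CPM in PFF. Its groups overlapped (−0.079 ± 0.098, adjusted p = 0.700), with a 95% interval from −0.29 to 0.13.

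Cdk4, the kinase that D-type cyclins activate, had 120.1, 103 and 107.1 CPM in PBS and 88, 83.9 and 96.3 CPM in PFF. It fell by 0.30 ± 0.08 with an adjusted p of 0.0477, close to the threshold. The call held in 9 of 18 alternatives. It was lost on leaving out any 1 library except PFF 3, with an adjusted p of up to 0.245 (without PFF 2). The next step of the cycle uses CDK2 with cyclins E1 and E2, and none of these genes passed. Cdk2 had 9.96, 9.61 and 10 CPM in PBS and 8.19, 7.54 and 9.49 CPM in PFF, without overlap (−0.23 ± 0.14, adjusted p = 0.370). Ccne1 (−0.15 ± 0.13), Ccne2 (−0.16 ± 0.20) and the transcription factor gene E2f1 (−0.14 ± 0.12) overlapped between the groups. Their 95% intervals ran from −0.44 to 0.13 (Ccne1), from −0.60 to 0.27 (Ccne2) and from −0.40 to 0.12 (E2f1). Changes within these limits were not excluded. The median over the 8 drivers was −0.20, beside −0.0006 for all genes tested.

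Some of these genes share bases with a neighbour on the opposite strand, and the strand setting of the authors' counting is not given in the sources used here. In GENCODE vM21 on GRCm38, 23.4% of the exonic bases of Ccnd1 lie inside LTO1, 19.7% of those of Cdk4 inside Tspan31, and 11.1% of those of Prc1 inside Rccd1. None of these neighbours passed: the log2 fold change was 0.11 ± 0.14 for LTO1, −0.05 ± 0.079 for Tspan31 and −0.29 ± 0.15 for Rccd1. For Rccd1 all PFF libraries lay below all PBS libraries, as for Prc1, while LTO1 and Tspan31 overlapped. The share was 67.3% for Gins2, 22.8% for Ube2c, 17.4% for Ccne2, 12.5% for Ccna2 and 7.86% for Ccnd2. Ccnd2 lies on chromosome 6 from 127125162 to 127152193, Ccnd1 on chromosome 7 from 144929931 to 144939925 and Cdk4 on chromosome 10 from 127063534 to 127067920. The counts are per gene, so they say nothing of single exons or transcripts of these protein-coding genes.

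**Figure D2:**
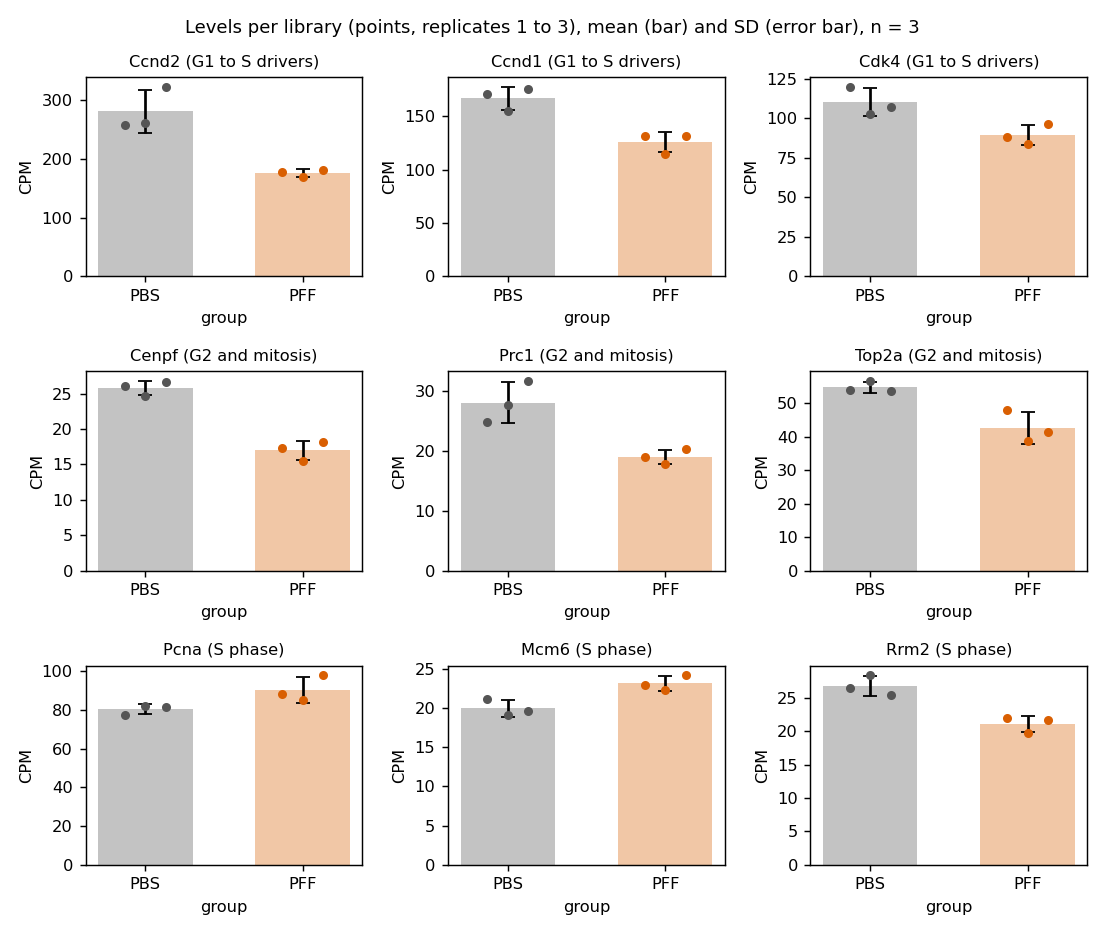
CPM of 9 members in each library (points), with the mean (bar) and SD (error bar) of 3 libraries per group, on axes that start at 0. In each of the 6 members that fell all PFF points lie below all PBS points, and in Pcna and Mcm6 they lie above.

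S phase genes license origins, unwind and copy DNA and supply nucleotides. None of the 15 passed in edgeR's quasi-likelihood test. At an unadjusted p under 0.05, 1 was lower (Rrm2) and 1 higher (Mcm6), and DESeq2 and limma-voom called none. The median log2 fold change was 0.044, with 8 members above 0 and 7 below, while 50.1% of all genes were below 0. It was −0.0048 without PFF 3, where Rrm2 passed, and 0.12 without PFF 2. All PFF libraries lay below all PBS libraries in 3 members and above them in 3, against 11.6% and 13.4% of all genes.

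The MCM proteins form the helicase that is loaded at origins, and 6 of its genes are members. Mcm6 had 21.2, 19.1 and 19.6 CPM in PBS and 22.9, 22.3 and 24.2 CPM in PFF. The PFF libraries lay above the PBS libraries (0.21 ± 0.10, adjusted p = 0.233). Mcm3 had 12.9, 10.4 and 9.34 CPM in PBS and 12.9, 12.4 and 13.7 CPM in PFF, and the groups overlapped through PBS 1 (0.27 ± 0.14, adjusted p = 0.294). Mcm7 went the other way, from 24.8, 29.3 and 25.6 CPM in PBS to 24, 21 and 24.7 CPM in PFF without overlap (−0.20 ± 0.11, adjusted p = 0.306). Mcm2 (−0.13 ± 0.15), Mcm4 (−0.041 ± 0.10) and Mcm5 (0.044 ± 0.12) overlapped. Subunits of 1 complex thus had estimates of both signs, none beyond the threshold. The licensing factors that load the helicase, Cdc6 (0.19 ± 0.22) and Cdt1 (0.16 ± 0.16), and Gins2 (−0.13 ± 0.23), a subunit of the active helicase, were among the least abundant members. Cdc6 had 23 to 33 counts per library, so its 95% interval ran from −0.29 to 0.67.

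Pcna, the sliding clamp of the replication fork, was the most abundant S phase member. Its 3 PBS libraries stood at 77.6, 82 and 81.7 CPM and the 3 PFF libraries at 88.1, 85 and 98.1 CPM. The groups did not overlap, but the difference did not pass (0.17 ± 0.079, adjusted p = 0.241). Hells, a chromatin remodeller that acts on newly copied DNA, likewise lay higher in PFF without overlap, at 5.31, 5.15 and 5.68 CPM in PBS against 6.84, 6.36 and 6.62 CPM in PFF (0.30 ± 0.15, adjusted p = 0.290). Uhrf1, which maintains DNA methylation after replication, overlapped (0.14 ± 0.14).

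Nucleotide supply had the lowest S phase value. Rrm2, the regulated subunit of ribonucleotide reductase, had 26.5, 28.5 and 25.4 CPM in PBS and 22, 19.8 and 21.8 CPM in PFF. All PFF libraries lay below all PBS libraries, and the log2 fold change of −0.34 ± 0.10 had an adjusted p of 0.0544. It passed in 6 of 18 alternatives, with adjusted p from 0.0165 (replicates 1 and 2 only) to 0.25 (without PFF 2). Rrm1, the catalytic subunit, was at −0.11 ± 0.09 and Tyms, thymidylate synthase, at −0.092 ± 0.19, neither past the threshold.

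Among the 21 genes of G2 and mitosis the median log2 fold change was −0.37. All 21 estimates were below 0, against 50.1% of all genes. With scaling by library size only, Smc4 had an estimate above 0 and the count was 20, as it was without PBS 2, PFF 2 or PFF 3 and with replicates 1 and 2 only. In 14 of the 21 all PFF libraries lay below all PBS libraries, as in 11.6% of all genes tested. For 15 the unadjusted p was under 0.05 (10.5% of all genes in this direction), and 3 passed after adjustment (2.60%). The number that passed was 1 without PFF 2 and 6 without PFF 3. With replicates 1 and 2 only it was also 6.

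Kinetochore and spindle genes held the largest differences of this phase. Cenpf, which encodes a large kinetochore protein made in G2, had 26, 24.7 and 26.7 CPM in PBS and 17.4, 15.5 and 18.1 CPM in PFF. The groups were well apart, and Cenpf fell by 0.60 ± 0.10 (adjusted p = 0.00258) and passed in all 18 alternatives. Prc1, which bundles microtubules at the spindle midzone, had 24.9, 27.7 and 31.8 CPM in PBS and 19, 17.9 and 20.3 CPM in PFF. It fell by 0.56 ± 0.11 (adjusted p = 0.00708), and without PFF 2 its adjusted p was 0.0544. Nusap1, a spindle-binding protein gene, had 14.7, 14.3 and 12.5 CPM in PBS and 11.3, 10.6 and 8.60 CPM in PFF. Its libraries did not overlap between the groups, yet it did not pass (−0.44 ± 0.14, adjusted p = 0.0764). With replicate 3 as a batch term it passed (adjusted p = 0.0177). Cenpe, the kinetochore motor, was at −0.38 ± 0.15 (adjusted p = 0.152). With a block on the replicate number it passed (adjusted p = 0.0415), as did Nusap1 (0.0203).

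Top2a, the topoisomerase that untangles sister chromatids, had 53.8, 56.7 and 53.8 CPM in PBS and 47.9, 38.7 and 41.5 CPM in PFF. It fell by 0.36 ± 0.09 (adjusted p = 0.0317). The call was lost without PBS 1, PBS 2 or PFF 2 (adjusted p = 0.096, 0.111 and 0.19) and with scaling by library size only (0.0701). Mki67, which encodes the proliferation antigen Ki-67, had 43.3, 34.7 and 36.1 CPM in PBS and 38.6, 30.6 and 30 CPM in PFF. Here the groups overlapped, with PBS 1 highest, and the difference did not pass (−0.20 ± 0.12, adjusted p = 0.348). The condensin genes differed between themselves: Smc2 was at −0.22 ± 0.10 without overlap, and Smc4 was level at 36.2, 35.9 and 36.5 CPM in PBS and 40.5, 33 and 34.6 CPM in PFF. The 95% interval for Smc4 ran from −0.21 to 0.20.

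Cyclins A and B and their kinase CDK1 carry cells into mitosis, and in these 4 genes every PFF library lay below every PBS library. None passed after adjustment. Ccna2 had 28.3, 33.3 and 26.2 CPM in PBS and 25.5, 17.7 and 21.8 CPM in PFF (−0.43 ± 0.13, adjusted p = 0.0687). PFF 2 was the lowest library, and Ccna2 passed in 6 of 18 alternatives. Ccnb1 had 19.9, 22.3 and 22.5 CPM in PBS and 18.6, 16.6 and 17.4 CPM in PFF (−0.30 ± 0.11, adjusted p = 0.113). With replicate 3 as a batch term Ccna2 (adjusted p = 0.022) and Ccnb1 (0.0494) passed in edgeR's test. Ccnb2 was at −0.41 ± 0.15 (adjusted p = 0.132) and Cdk1 at −0.25 ± 0.12 (adjusted p = 0.234). The mitotic kinases and their partners had similar estimates with wider errors: Aurka −0.40 ± 0.18, Plk1 −0.38 ± 0.18 and the Aurora B partner Birc5 (survivin) −0.37 ± 0.15. Aurkb itself was at −0.072 ± 0.17 and the Aurora A activator Tpx2 at −0.19 ± 0.11. Of the spindle checkpoint and the exit from mitosis, Bub1 was at −0.35 ± 0.16, Bub1b at −0.16 ± 0.14, Cdc20 at −0.38 ± 0.14 and Ube2c, the ubiquitin-conjugating enzyme of the anaphase-promoting complex, at −0.37 ± 0.17. Adjusted p-values of these 9 genes in edgeR's quasi-likelihood test ran from 0.154 (Cdc20) to 0.852 (Aurkb). Without PFF 3, Ube2c (adjusted p = 0.0331), Aurka (0.0497) and Cdc20 (0.0447) passed in this test. With replicates 1 and 2 only Ube2c (0.00176) and Aurka (0.0428) passed. Plk1, Birc5, Aurkb, Tpx2, Bub1 and Bub1b passed in none of the 18 alternatives.

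The S phase and G2/M lists were set side by side within each library. The G2/M members summed to 418.5, 421.6 and 414.7 CPM in PBS and to 361.7, 307.2 and 341.8 CPM in PFF. The S phase members summed to 284.7, 294.2 and 281.1 CPM in PBS and to 297.7, 272 and 303.9 CPM in PFF. The PFF sums were all lower for G2/M, whereas for S phase the groups overlapped. The ratio of the G2/M sum to the S phase sum was 1.47, 1.43 and 1.48 in PBS and 1.21, 1.13 and 1.12 in PFF. On the log2 scale, the mean S phase level minus the mean G2/M level was −0.37 ± 0.0079 in PBS and −0.019 ± 0.029 in PFF (SD, n = 3), a shift of 0.35. Scaling between libraries nearly cancels in this difference. PFF 2 was the lowest of its group in 11 of 15 S phase genes and in 15 of 21 G2/M genes, and its within-library difference of 0.013 stood beside −0.044 and −0.025 in PFF 1 and PFF 3. The difference between the medians of the log2 fold changes was 0.42, and it ran from 0.33 to 0.42 with each library left out in turn. With replicates 1 and 2 only it was 0.33. These are descriptions of lists chosen with earlier results known, and no test was made of them.

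**Figure D3:**
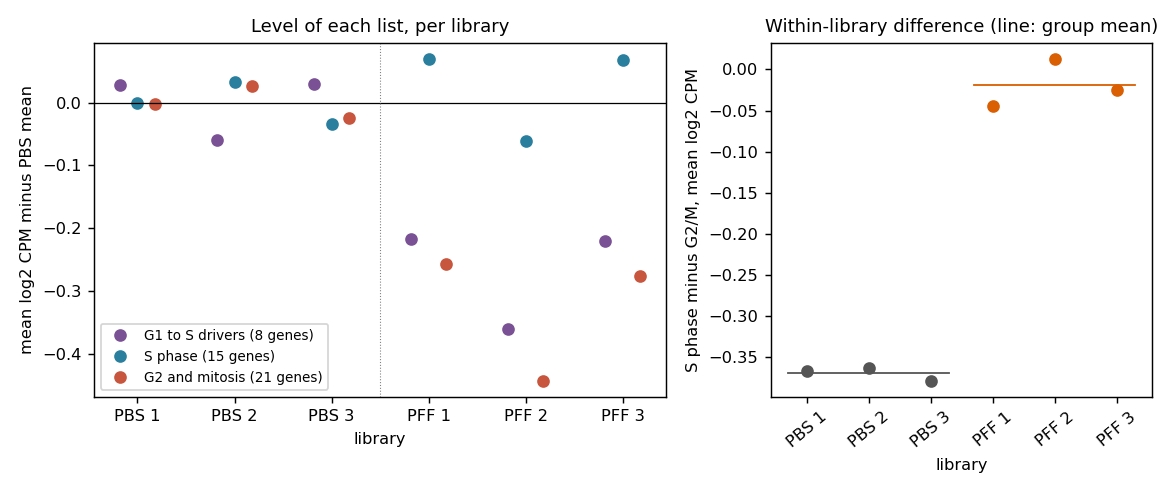
Left, mean log2 CPM of each list in each library, relative to its mean in PBS. Right, the S phase mean minus the G2/M mean within each library, which is between −0.38 and −0.36 in PBS and between −0.044 and 0.013 in PFF (lines, group means).

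Promoters of the 2 phases are known to differ in sequence, and windows are shown for members at the low and the high end of the fold changes. S phase promoters carry E2F sites, and promoters of late genes carry the cell cycle homology region (CHR), which MuvB binds, with CCAAT boxes for NF-Y. Windows from 250 bases before to 50 bases after each gene's start came from a table of RefSeq sequences on GRCm38.p6, in which 35 of the 44 members were matched. Windows of Ccnd1, Ccnd2, Ccne2, Mcm4, Gins2, Ccna2, Aurkb, Tpx2 and Smc4 were not analysed here. The letters searched, on both strands, were TTTGAA or TTCGAA for the CHR, CCAAT for the CCAAT box, and TTTCCCGC, TTTCGCGC, TTTGCCGC or TTTGGCGC for E2F. The motifs were chosen after the fold changes were seen. None of these strings contains another, though matches may overlap, as 2 E2F matches of Mcm6 do. The windows are printed 5′ to 3′ on the gene's strand, with matches in capitals. The first 3 genes are those of G2 and mitosis that fell, and the last 3 are the S phase genes with the highest log2 fold changes.
Cenpf (chr1:189688037-189688336, minus strand): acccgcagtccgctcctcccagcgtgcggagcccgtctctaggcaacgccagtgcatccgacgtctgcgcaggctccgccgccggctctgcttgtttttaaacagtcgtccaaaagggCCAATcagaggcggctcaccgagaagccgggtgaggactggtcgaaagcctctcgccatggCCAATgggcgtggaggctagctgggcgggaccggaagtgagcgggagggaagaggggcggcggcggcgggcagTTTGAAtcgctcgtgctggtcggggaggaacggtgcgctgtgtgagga
Prc1 (chr7:80294201-80294500, plus strand): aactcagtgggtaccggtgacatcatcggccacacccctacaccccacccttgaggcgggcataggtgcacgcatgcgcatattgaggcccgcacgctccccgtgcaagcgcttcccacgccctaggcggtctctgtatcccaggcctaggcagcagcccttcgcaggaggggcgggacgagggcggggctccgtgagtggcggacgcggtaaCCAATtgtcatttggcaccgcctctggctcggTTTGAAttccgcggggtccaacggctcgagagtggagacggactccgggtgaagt
Top2a (chr11:99024140-99024439, minus strand): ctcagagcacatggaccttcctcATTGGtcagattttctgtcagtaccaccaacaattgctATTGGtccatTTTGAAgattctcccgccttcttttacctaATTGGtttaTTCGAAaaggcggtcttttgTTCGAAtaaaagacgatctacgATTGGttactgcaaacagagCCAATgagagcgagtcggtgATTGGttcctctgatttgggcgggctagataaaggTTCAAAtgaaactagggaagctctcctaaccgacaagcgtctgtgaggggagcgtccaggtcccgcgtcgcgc
Hells (chr19:38930740-38931039, plus strand): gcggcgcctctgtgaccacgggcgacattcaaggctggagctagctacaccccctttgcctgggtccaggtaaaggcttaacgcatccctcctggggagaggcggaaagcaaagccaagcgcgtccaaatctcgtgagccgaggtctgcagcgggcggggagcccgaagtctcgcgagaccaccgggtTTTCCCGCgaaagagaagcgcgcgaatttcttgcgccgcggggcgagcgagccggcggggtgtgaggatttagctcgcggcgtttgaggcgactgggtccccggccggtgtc
Mcm3 (chr1:20820263-20820562, minus strand): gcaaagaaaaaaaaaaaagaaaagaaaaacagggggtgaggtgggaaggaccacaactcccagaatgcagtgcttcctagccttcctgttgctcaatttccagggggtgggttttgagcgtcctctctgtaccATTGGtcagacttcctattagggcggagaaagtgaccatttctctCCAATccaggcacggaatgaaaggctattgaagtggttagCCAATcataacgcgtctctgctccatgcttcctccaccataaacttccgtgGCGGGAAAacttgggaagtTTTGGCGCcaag
Mcm6 (chr1:128359656-128359955, minus strand): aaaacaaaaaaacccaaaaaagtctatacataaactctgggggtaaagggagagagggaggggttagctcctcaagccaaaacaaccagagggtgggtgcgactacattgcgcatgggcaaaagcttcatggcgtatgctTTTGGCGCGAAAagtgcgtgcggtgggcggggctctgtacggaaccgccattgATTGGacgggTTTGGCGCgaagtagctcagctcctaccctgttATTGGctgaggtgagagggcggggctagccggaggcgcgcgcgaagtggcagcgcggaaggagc
In Cenpf the CHR letters began at base 3 after the start, and in Prc1 5 bases before it, each with a CCAAT box upstream. Top2a held 4 CHR matches and 6 CCAAT boxes and no E2F match. Hells held 1 E2F match, Mcm3 had 2 and Mcm6 had 3, and none of the 3 had a CHR match.

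Over all members with a window, the CHR letters were found in 13 of 17 genes of G2 and mitosis (76.5%), in 2 of 13 S phase genes (15.4%) and in 0 of 5 G1 drivers. Of the 10558 tested genes with a window 15.9% held them, as did 19.2% of the 32851 windows. E2F letters were in 8 of 13 S phase genes (61.5%), in 1 of 17 genes of G2 and mitosis (5.88%) and in 1 of 5 drivers, against 4.57% of tested genes and 2.26% of windows. The CCAAT box was in 15 of 17 genes of G2 and mitosis, in 9 of 13 S phase genes and in 42.9% of tested genes (37.4% of windows). Where a gene had 2 windows, a match in either counted.

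Grouped by these letters rather than by phase, the 13 members with a CHR and no E2F match had log2 fold changes from −0.60 to −0.13, with a median of −0.37. All 13 were below 0, as were 11 of the 12 members with neither motif and all 9 without a window, and 12 of the 13 are genes of G2 and mitosis. The 4 genes of G2 and mitosis whose window held no CHR letters had values in the same range: Ccnb1 −0.30, Birc5 −0.37, Cenpe −0.38 and Nusap1 −0.44. The 8 members with an E2F and no CHR match ran from −0.23 to 0.30, with a median of 0.18, and 7 of the 8 were above 0. The exception was Cdk2. Mcm7 and Cdk1 held both motifs and were at −0.20 and −0.25. The 12 members with neither had a median of −0.23. Rrm2, the S phase gene with the lowest value, and Pcna were both in that last class. Among all tested genes the median was −0.015 in the 1594 with a CHR and no E2F match and 0.011 in the 398 with E2F and no CHR match. A match describes these letters in this window and does not show a bound site.

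**Figure D4:**
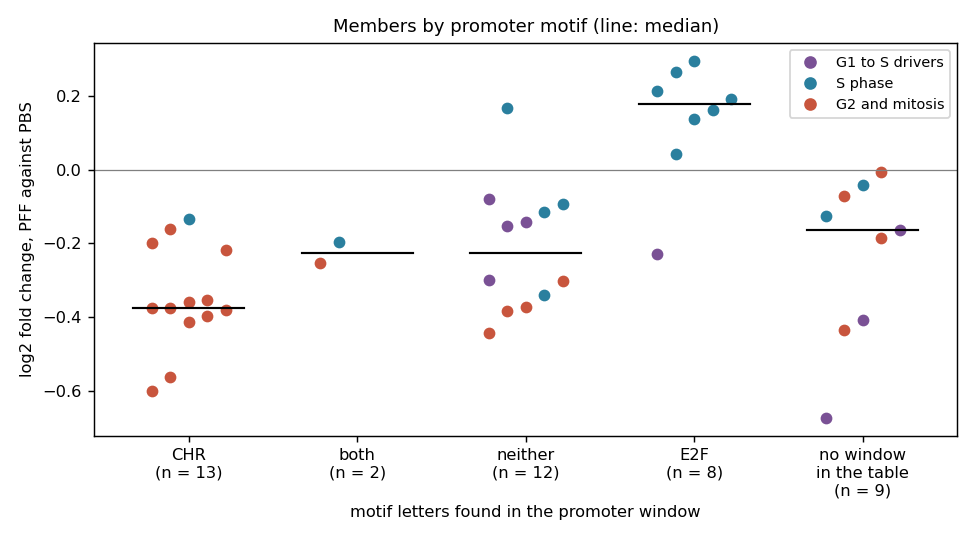
Log2 fold change of each member, PFF against PBS, by the motif letters found in its promoter window, coloured by phase, with the median of each class (line). The CHR class (13 members) lies wholly below 0 and 7 of the 8 members of the E2F class lie above it.

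Levels between genes were compared per kilobase of annotated exon. This length joins all annotated exons of a gene, such as 6.089 kilobases for Tyms, and may exceed that of the transcripts present. The annotation used for counting is not given, so the order is approximate. Ccnd1 (35.5 ± 2.28), Cdk4 (33.9 ± 2.74), Pcna (33.5 ± 1.02) and Ccnd2 (29.8 ± 3.88) led in PBS (CPM per kilobase, mean ± SD, n = 3), and these 4 overlapped within their spread. The next was Rrm2 at 9.67 ± 0.555, followed by Ccna2 at 7.16 ± 0.897, whose spread took in that of Smc4 (6.95 ± 0.0531). The lowest were Hells (0.746 ± 0.0379), Tyms (0.718 ± 0.0976) and Cdc6 (0.513 ± 0.0784), of which Hells and Tyms did not differ beyond their spread. In PFF the order of the leading genes was Pcna (37.7 ± 2.85), Cdk4 (27.5 ± 1.94), Ccnd1 (26.7 ± 1.99) and Ccnd2 (18.7 ± 0.723). Of these, Cdk4 and Ccnd1 did not differ beyond their spread.

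Other genes of the same pathways came from 4 lists. Their counts stand beside all genes tested, of which 2.60% fell, 3.98% rose and 50.1% had an estimate below 0. Of 52 further mitosis genes 7 fell (13.5%) and none rose, with a median of −0.29 and 45 estimates below 0 (86.5%). Ckap2, a spindle microtubule protein gene, fell by 0.76 ± 0.09 from 32.6, 30.2 and 31.8 CPM in PBS to 17.9, 18.7 and 19.1 CPM in PFF (adjusted p = 0.000189). Hmgb2, a chromatin protein gene, fell by 0.52 ± 0.08 (adjusted p = 0.00141), and Cdca3, a trigger of mitotic entry, by 0.64 ± 0.13 (adjusted p = 0.00784, and 0.0568 without PFF 2). Cenpa, Spc25, Kif11 and Aspm, named after their values were seen, fell by 0.60 ± 0.15, 0.55 ± 0.14, 0.47 ± 0.11 and 0.52 ± 0.12. Of 44 further replication genes none passed in edgeR's test, with 2 lower and 0 higher at an unadjusted p under 0.05 and a median of −0.042. The nearest were Rpa3 (−0.46 ± 0.15, adjusted p = 0.0981), Tipin (−0.26 ± 0.12) and the polymerase gene Pola1 (0.33 ± 0.16).

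Of 20 E2F, MYB, MuvB and FOXM1 regulators and CDC25 and WEE1 switches 3 fell and none rose, with 12 estimates above 0 and a median of 0.026. Foxm1, which encodes the factor that activates genes of G2 and mitosis, had 21, 22.5 and 22.6 CPM in PBS and 17.8, 14.4 and 14.6 CPM in PFF, a fall of 0.50 ± 0.11 (adjusted p = 0.0181). Mybl1, a MYB family gene, fell by 0.43 ± 0.11 (adjusted p = 0.0317), and Cdc25b, the phosphatase that activates CDK1, by 0.41 ± 0.11 (adjusted p = 0.0458). The B-MYB gene Mybl2 (0.15 ± 0.21) and the MuvB genes Lin9 (0.38 ± 0.19) and Lin54 (0.068 ± 0.11), named after their values were seen, had estimates above 0 and did not pass. Of the CDK inhibitors and the retinoblastoma family, 1 of 9 tested genes fell. Cdkn2b, which encodes the CDK4 inhibitor p15, fell by 1.03 ± 0.24 from 4.33, 3.59 and 3.75 CPM in PBS to 2.12, 1.37 and 2.18 CPM in PFF (adjusted p = 0.0197). Cdkn1c (−1.13 ± 0.33, adjusted p = 0.0585) and Rb1 (−0.27 ± 0.09, adjusted p = 0.0954) lay lower without overlap but did not pass. Cdkn2a had too few counts to be tested. Across these 4 lists 11 genes fell and none rose, but without PFF 2 only 2 passed, Ckap2 and Hmgb2, and without PBS 1 the number was 4. Without PBS 2 it was 7, and with replicates 1 and 2 only it was 23. The highest adjusted p over the alternatives was 0.127 for Mybl1 (without PBS 2). For the other 3 regulators it came without PFF 2, at 0.11 for Foxm1, 0.201 for Cdc25b and 0.108 for Cdkn2b. Mybl1, called in 12 of 18 alternatives, also lost its call without PBS 1, PFF 2 or PFF 3, with library size only and in DESeq2. Cdc25b, called in 10 of 18, also lost it without PBS 1, PBS 2 or PFF 1, with library size only, a filter of 50 counts, DESeq2 and limma-voom. The call was also lost for Foxm1 without PBS 2 and for Cdkn2b without PBS 1.

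Marker lists that include cell types able to divide in such cultures went different ways. The oligodendrocyte list joins progenitors with committed precursors. Sums of oligodendrocyte progenitor and precursor markers were lower in every PFF library, and those of microglia markers were higher. Sums of progenitor and of astrocyte markers overlapped between the groups. The mean log2 level of progenitor markers was nevertheless lower in every PFF library, while that of astrocyte markers overlapped. Of all genes tested 2.60% fell and 3.98% rose. Of 12 markers of oligodendrocyte progenitors and committed precursors 10 fell and none rose, with a median of −0.81, and their summed level ran from 1370 to 1511 CPM in PBS and from 1128 to 1169 in PFF. Pdgfra, the receptor that drives division of these progenitors, fell by 0.62 ± 0.07, with Bcas1 (−1.66 ± 0.16) and Gpr17 (−1.22 ± 0.14). Estimates of the list ran from that of Bcas1 to 0.046 ± 0.085 for Ptprz1, the only 1 above 0. Cspg4 (−0.38 ± 0.09), Olig1 (−0.34 ± 0.07) and Olig2 (−0.41 ± 0.10) fell less than Pdgfra. These last 4 were named after their values were seen. Progenitor markers had 2 of 11 tested genes fall, Hes5 (−1.28 ± 0.15) and Hes1 (−0.76 ± 0.21), and summed to 1167 to 1474 CPM in PBS and 920.9 to 1301 in PFF. Of these 11, 9 estimates were below 0 (81.8%, against 50.1% of all genes), with a median of −0.25. Their mean log2 level relative to the PBS mean was 0.023, −0.071 and 0.048 in PBS. In PFF it was −0.426, −0.441 and −0.188. Dll1 was at −0.43 ± 0.14 (adjusted p = 0.0919), and Eomes, the marker of intermediate progenitors, had too few counts to be tested. Astrocyte markers had 3 of 12 fall, Aldoc (−0.46 ± 0.09), Slc1a2 (−0.51 ± 0.10) and Aldh1l1 (−0.42 ± 0.11), and their sums overlapped between the groups (4586 to 5992 and 4560 to 5654 CPM). Of these 12, 10 estimates were below 0 (83.3%, against 50.1% of all genes), with a median of −0.22. The 2 above 0 were Gfap (0.12 ± 0.14) and Aqp4 (0.004 ± 0.097), named after their values were seen. The part of these cell types in the members' differences was not tested.

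In the opposite direction, 14 of 15 microglia markers rose, with a median of 1.376 and sums of 209.4 to 327.3 CPM in PBS and 601.9 to 731.8 in PFF. Examples are Itgam (1.89 ± 0.15), C1qa (1.56 ± 0.15) and Ctss (1.42 ± 0.14). Myelin genes had 5 of 9 rise and 1 fall, with sums of 410.4 to 516.6 CPM in PBS and 658.5 to 989 in PFF. Mag (1.41 ± 0.14), Mobp (1.67 ± 0.20) and Mbp (1.29 ± 0.15) were among those that rose. The gene that fell was Myrf (−0.79 ± 0.21, adjusted p = 0.0358). Cnp was at −0.26 ± 0.10 and did not pass (adjusted p = 0.163). Myrf and Cnp were named after their values were seen. Neuron markers had 2 of 12 rise, Nefm (0.67 ± 0.10) and Syt1 (0.33 ± 0.09), with Tubb3 at 0.29 ± 0.09 (adjusted p = 0.0635). Of these 12, 9 estimates were above 0 and 3 below. Those below were Map2 (−0.15 ± 0.09), Stmn2 (−0.083 ± 0.078) and Gad1 (−0.009 ± 0.088), named after their values were seen. None of them passed. Of 15 vascular and fibroblast markers 11 were tested and 1 fell, Tagln (−0.78 ± 0.21), while Rgs5 (−0.60 ± 0.23) and Flt1 (0.96 ± 0.34) did not pass. Their sums ran from 78.84 to 104.4 CPM in PBS and from 50.52 to 91.45 in PFF. The endothelial genes Cldn5, Cdh5 and Tek had too few counts to be tested. Aldoc, Aldh1l1, Slc1a2, Hes1, Syt1 and Tagln lost their calls without PFF 2, with adjusted p of up to 0.274 over all alternatives (Syt1). Hes1 and Syt1 also lost them without PFF 1 or any PBS library, Aldh1l1 without PBS 1, PBS 3 or PFF 1, Tagln without PBS 1, PBS 3 or PFF 3, and Aldoc without PBS 1. Syt1, called in 9 of 18 alternatives, also lost its call with RLE or upper quartile scaling, a filter of 50 counts and edgeR without robust estimation. Hes1 also lost it with library size only and in DESeq2, and Tagln with replicates 1 and 2 only. Within PFF, PFF 2 had the lowest G2/M level and the highest mean level of neuron markers. It also had the lowest mean level of oligodendrocyte progenitor and precursor, progenitor, astrocyte, vascular, microglia and myelin markers. The mean log2 level of PFF 2 relative to PBS was −0.44 for G2/M, −0.89 for oligodendrocyte progenitor and precursor markers and 0.31 for neuron markers. In PFF 1 and PFF 3 these values were −0.26 and −0.28, −0.63 and −0.82, and 0.15 and 0.13.

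**Figure D5:**
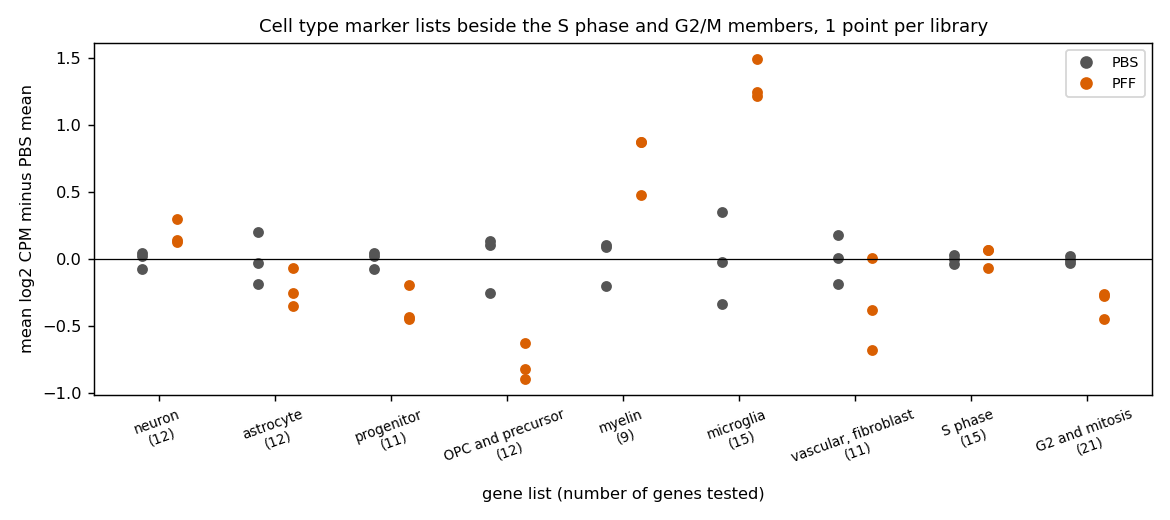
Mean log2 CPM of each marker list and of the S phase and G2/M members in each library (1 point each), relative to the mean of the list in PBS. The PFF points lie below PBS for progenitor markers, for the oligodendrocyte progenitor (OPC) and precursor markers and for G2 and mitosis. They lie above PBS for neuron, microglia and myelin markers. For S phase 2 PFF points lie above the PBS points (0.07 and 0.068) and 1 below them (−0.061).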

How the data were processed

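RNA was sequenced from 3 PBS and 3 PFF libraries, and the kit marks strand, per the labels' protocols. The authors deposited unscaled estimated counts for each gene, of which 8.69% were not whole numbers. The submitters' processing notes name Trim Galore 0.6.6, STAR 2.7.9a, DESeq2 1.38.3 and the mm10 genome. How reads were counted, with which annotation and strand setting, is not given in the sources used here, so reads of overlapping genes may have been shared.

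Counts were rounded. With edgeR 4.0.16 in R 4.3.3, 13919 genes passed filterByExpr and 10492 did not. TMM-normalised counts were tested with the robust quasi-likelihood F-test, two-sided, on the group alone, with Benjamini-Hochberg adjustment over all genes and a threshold of 0.05. CPM are per 1000000 of the TMM-scaled library total, with a prior count of 2 for log2 CPM. The standard error is the log2 fold change divided by the square root of F, and intervals cover 95%. Gene models came from GENCODE vM21 (GRCm38, the assembly of mm10), and 99.6% of symbols matched RefSeq. Of the listed genes 3 stood under older symbols. The steps were tested on simulated data. Members and lists were chosen with earlier results of these data known. All 44 members were named, and of each other list up to 3 genes with the smallest unadjusted p. Alternatives used other normalisations, filters and tests (DESeq2 1.42.0, limma-voom with limma 3.58.1), a block on the replicate number, replicate 3 as a batch term or left out, removal of Rn45s, and each library left out in turn. They make 18 alternatives in all.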

Additional observations from a re-analysis of the deposited data

How the results depend on the processing

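The 6 members that fell kept their direction in all 18 alternatives, and no called value reversed. Other normalisations, filters and tests gave 4 to 8 members. The number of genes changed was 1997 with a replicate block, 2005 with replicate 3 as a batch term and 2394 with replicates 1 and 2 only, and from 412 to 1858 with 1 library left out. Under the same 3 settings 10 members changed each time (2 to 10 with 1 library left out), of which 6 were genes of G2 and mitosis (1 to 6) and 1 an S phase gene, Rrm2 (0 to 1). Rrm2 also made that number 1 with upper quartile scaling and with no low-count filter. Of the G1 to S drivers 1 to 3 changed with 1 library left out. Other pathway genes numbered 22, 23 and 23 under these 3 settings and 2 to 15 with 1 library left out. The median of S phase members was −0.052 with replicates 1 and 2 only and from −0.0048 to 0.12 with 1 library left out. That of G2 and mitosis ran from −0.37 to −0.26, that of the drivers from −0.27 to −0.16, and the difference of medians from 0.33 to 0.42, with 0.33 in replicates 1 and 2 only. The lowest counts of changed genes came without PFF 2 and the highest without PFF 3. Fewer samples enter these fits, and their counts lay below (412) and above (1858) the 916 of the main fit. The cause was not tested. With the replicate block the members that also passed were Rrm2 (adjusted p = 0.0207), Ccna2 (0.0358), Nusap1 (0.0203) and Cenpe (0.0415). Replicate numbers were not taken as pairs in the main test. The correlation of deviations was 0.092, 0.109 and 0.202 for same-numbered libraries. Between different numbers it was 0.128 for PBS 2 with PFF 1. Every other such value was below 0, from −0.009 (PBS 1 with PFF 3) to −0.207 (PBS 3 with PFF 1). The main test takes no account of a difference shared by libraries of the same number. Depth limits the scarcest members, such as Cdc6 with 23 to 33 counts per library.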
